A study of Homo sapiens with 3 samples.

Results

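The genes described here are 10 members of the transcriptional response to low oxygen: NDUFA4L2, NDRG1, BNIP3, BNIP3L, ADM, VEGFA, EGLN1, EGLN3, ANKRD37 and HIF1A. They were chosen by GENCODE gene name from the 58884 genes of a read count table, and each name matched 1 row. The RNA came from LNCaP, an established androgen-responsive cell line of human prostate cancer. After 24 h in complete medium all cells were kept for 72 h in medium that held 50% conditioned medium (CM) and 2% fetal bovine serum. The 3 groups differed in that medium, which was control-CM, PVAT-CM (marked as normal in the labels) or PPAT-CM (marked as tumor). The series title expands PPAT as periprostatic adipose tissue, and PVAT is not expanded. Each medium had 1 library, so no difference below has a replicate check and no p-value was computed. The oxygen level of the cultures, and any pooling of donors for a conditioned medium, are not stated in the labels. The 10 genes were proposed with results of these data in view, so their values are a description.

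Cells sense oxygen through hypoxia-inducible factor (HIF), a pair of an oxygen-labile alpha subunit, such as the product of HIF1A, and the stable partner ARNT. With oxygen present, the prolyl hydroxylases encoded by EGLN1, EGLN2 and EGLN3 mark the alpha subunit, the VHL ubiquitin ligase binds it and it is degraded. When oxygen is low, or when other signals stabilise the subunit, HIF binds short DNA elements and raises genes of glycolysis, vessel growth and mitochondrial remodelling, as well as EGLN1 and EGLN3 themselves. The level of HIF is set largely through protein stability, which an RNA measurement does not read.

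HIF binds a core element spelled ACGTG or GCGTG, so the promoters of the 10 genes were searched for these letters on both strands. The RefSeq table used (GRCh38.p14) holds 250 bases before and 50 after each start, and had an entry for 6 of the genes, of which 5 had a match. The windows below show each match, written 5′ to 3′ on the strand of the gene, with the bases of a match on either strand in capitals. They are BNIP3 at chr10:131982015-131982074 (minus strand), ANKRD37 at chr4:185396661-185396720 (plus), EGLN1 at chr1:231422288-231422347 (minus), ADM at chr11:10304944-10305003 (plus) and HIF1A at chr14:61695281-61695340 (plus).
BNIP3: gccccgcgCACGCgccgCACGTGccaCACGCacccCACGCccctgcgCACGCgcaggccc
ANKRD37: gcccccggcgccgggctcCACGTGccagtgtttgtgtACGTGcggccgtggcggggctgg
EGLN1: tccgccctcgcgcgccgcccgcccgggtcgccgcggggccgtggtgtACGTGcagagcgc
ADM: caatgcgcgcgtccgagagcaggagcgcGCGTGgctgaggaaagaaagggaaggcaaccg
HIF1A: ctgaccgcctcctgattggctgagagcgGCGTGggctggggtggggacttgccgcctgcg
BNIP3 had 6 matches, ANKRD37 had 3, and EGLN1, ADM and HIF1A had 1 each. In BNIP3 and ANKRD37 the run CACGTG reads as ACGTG on both strands and counts as 2 overlapping matches. EGLN3 had none in this window, and neither did a second HIF1A start in the table. A match was common, with 48.4% of the 35116 promoters of this length holding at least 1, 10.1% holding at least 3 and 7.26% holding CACGTG. The letters are therefore a description of these promoters and not evidence of binding.

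Library totals lay between 14174241 and 16965584 counts. Genes of the mitochondrial chromosome took 30.8% of counts with control-CM, 21.1% with PVAT-CM and 15.5% with PPAT-CM, and TMM factors computed without these genes shifted the log2 ratios by -0.012 in PPAT-CM against control-CM. Levels are given as scaled CPM, counts divided by a library total that edgeR's TMM factors adjust and scaled to CPM units, and 0 counts were compatible with at most 0.210 scaled CPM. All 9 markers of LNCaP identity had counts, with a summed level of 3488 scaled CPM with control-CM, 3502 with PVAT-CM and 2609 with PPAT-CM. Of markers of other cell types, the adipocyte genes ADIPOQ, LEP, FABP4 and LPL, the endothelial genes CDH5 and KDR and the leukocyte genes PTPRC and CD3E had 0 counts throughout. In the same lists the endothelial gene VWF had 26, 15 and 35 counts with control-CM, PVAT-CM and PPAT-CM, and the leukocyte genes CD14 and CD68 had at most 11. PLIN1 had 13, 27 and 89 counts in the control, PVAT-CM and PPAT-CM libraries, and the fibroblast collagen COL1A1 had 718, 323 and 478 with COL1A2, PDGFRA and DCN at 0; the part of these genes in the results was not tested.

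The 10 genes did not all differ in the same direction. Compared with control-CM, NDUFA4L2 was far lower in PPAT-CM and lower in PVAT-CM. In PPAT-CM NDRG1, ADM, VEGFA and the mitophagy receptor genes BNIP3 and BNIP3L were moderately lower than in control-CM. The oxygen sensor genes EGLN1 and EGLN3 were higher there. In RNA of whole cultures, fewer cells with a transcript and less of it per cell cannot be told apart. All 10 passed the filter of a mean of at least 50 counts over the libraries, as did 12256 genes in all. In PPAT-CM against control-CM 5 of the 10 were at least 1.5-fold lower, where 8.71% of all measured genes were, and 2 were at least 1.5-fold higher, where 12% were. The median log2 ratio of the 10 was -0.60, beside 0.03 over all measured genes. In PVAT-CM against control-CM 2 were at least 1.5-fold lower (3.49% of all genes) and 0 higher (3.15%), with a median of -0.12 beside 0.02. In PPAT-CM against PVAT-CM 3 were lower (6.07%) and 0 higher (8.56%), with a median of -0.21 beside 0.02. At a threshold of 2-fold NDUFA4L2 alone of the 10 was lower in each comparison, where 2.74% of all genes were in PPAT-CM against control-CM, 0.441% in PVAT-CM against control-CM and 1.47% in PPAT-CM against PVAT-CM. None of the 10 was 2-fold higher, where 3.93%, 0.465% and 2.45% of all genes were in the same order. These comparisons share libraries and are not independent of each other.

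**Figure D1:**
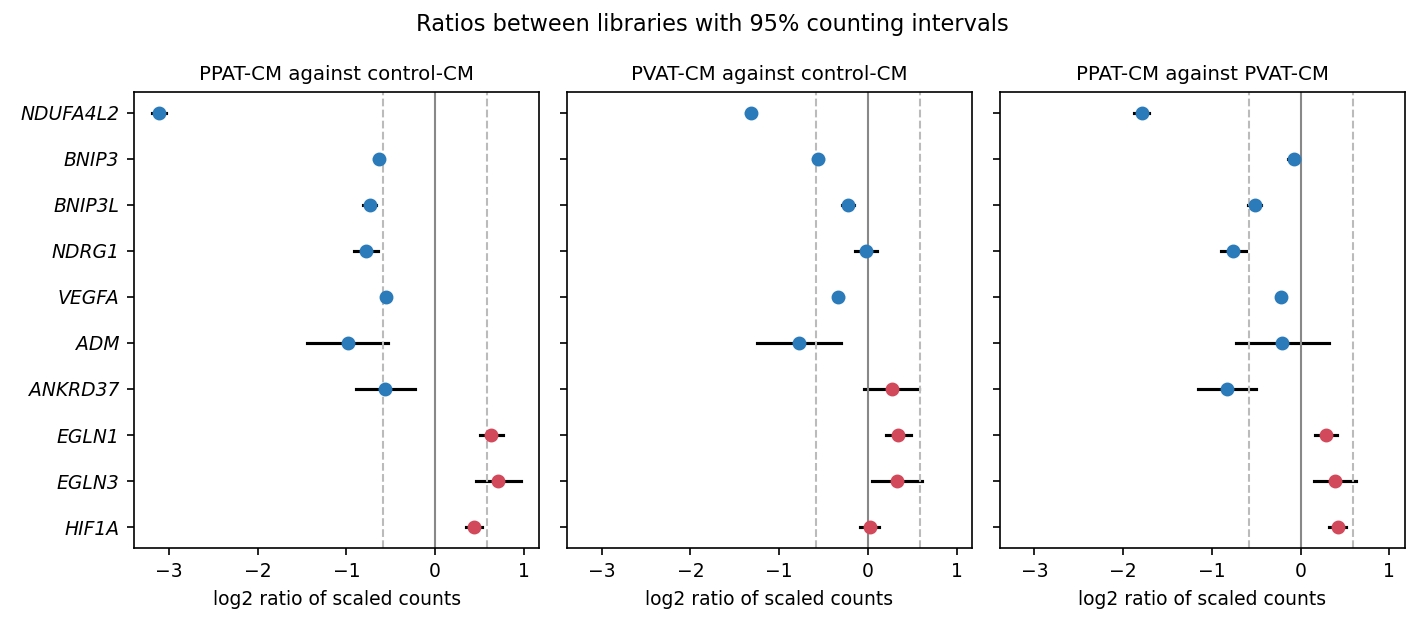
Log2 ratio of TMM-scaled counts (x axis) of each of the 10 genes in the 3 comparisons, 1 library per medium. Points are ratios (blue lower, red higher), bars are 95% counting intervals, and dashed lines mark 1.5-fold; NDUFA4L2 lies far to the left in each panel, and EGLN1, EGLN3 and HIF1A lie to the right in PPAT-CM.

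NDUFA4L2 (ENSG00000185633, chromosome 12, 57234903 to 57240715, minus strand, GRCh38) encodes a HIF-induced mitochondrial protein known for restraining respiratory chain activity under low oxygen. It had 11421 counts with control-CM, 4304 with PVAT-CM and 1604 with PPAT-CM, or 753, 302 and 87.2 scaled CPM. The control library was the highest and the PPAT-CM library the lowest, with PVAT-CM between them. The gene was 8.63-fold lower in PPAT-CM than in control-CM (95% counting interval 8.19 to 9.10), 2.49-fold lower in PVAT-CM than in control-CM (2.41 to 2.58), and between PVAT-CM and PPAT-CM it was 3.46-fold lower in the latter (3.27 to 3.67). Of the 12256 measured genes, 3 had a lower ratio than NDUFA4L2 in PPAT-CM against control-CM, 19 in PVAT-CM against control-CM and 18 in PPAT-CM against PVAT-CM. Among the 2958 genes with a mean of at least 1000 counts, 1 had a lower ratio in the first of these comparisons, 0 in the next and 3 in the last.

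Its paralog NDUFA4, a subunit associated with cytochrome c oxidase, went the other way. NDUFA4 had 2004, 2370 and 3603 counts in the control, PVAT-CM and PPAT-CM libraries and was 1.48-fold higher in PPAT-CM than in control-CM (1.40 to 1.57). The ratio of NDUFA4L2 to NDUFA4 counts within a library, which no library scaling can change, was 5.70 with control-CM, 1.82 with PVAT-CM and 0.445 with PPAT-CM. It was thus 12.8-fold lower in PPAT-CM than in control-CM (11.9 to 13.8). Per kb of annotated exon the level of NDUFA4L2 was 268 scaled CPM in control-CM against 37.2 for NDUFA4, and 31.1 against 55.1 in PPAT-CM, so the order of the paralogs was reversed between these libraries. The annotated exons of NDUFA4L2 share 33 bases with SHMT2 on the opposite strand, whose counts were 3789, 4511 and 5279, so the neighbouring gene was not lower. Of 16 genes of cytochrome c oxidase and its partners 14 were measured, with a median of -0.07 in PPAT-CM against control-CM. There 1 was at least 1.5-fold higher, where 12% of all measured genes were, and 1 lower, where 8.71% were. These were COX5A, 1.64-fold higher (1.55 to 1.73), and COX6A1, 1.55-fold lower (1.47 to 1.62). COX4I2, the COX4 isoform linked to low oxygen, had 0 counts in each library.

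Among 8987 genes with a mean of at least 200 counts, the 6 nearest to NDUFA4L2 by the Euclidean distance of their log2 ratios (PVAT-CM and PPAT-CM, each against control-CM, over 3 libraries) were LAMA3, MID1, AC091138.1, CDH26, COL5A2 and SYT4. The laminin gene LAMA3 was the closest, at a distance of 0.79 on the log2 scale, with 3443, 2103 and 626 counts in the control, PVAT-CM and PPAT-CM libraries. COL5A2, a fibrillar collagen chain, had 1173, 348 and 379 counts and so, unlike NDUFA4L2, was about as low in PVAT-CM as in PPAT-CM. SYT4, a synaptotagmin, had 6831, 4466 and 1941 counts, and its distance was 1.29. All 6 were less reduced than NDUFA4L2 in PPAT-CM, between 3.75-fold and 6.67-fold lower than in control-CM. None of the other 9 hypoxia genes was among them. ADM and ANKRD37, with means of 78.7 and 165 counts, were below the minimum and could not be. None of the 9 was 2-fold lower in PPAT-CM than in control-CM, so their absence followed from the ratios already given.

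**Figure D2:**
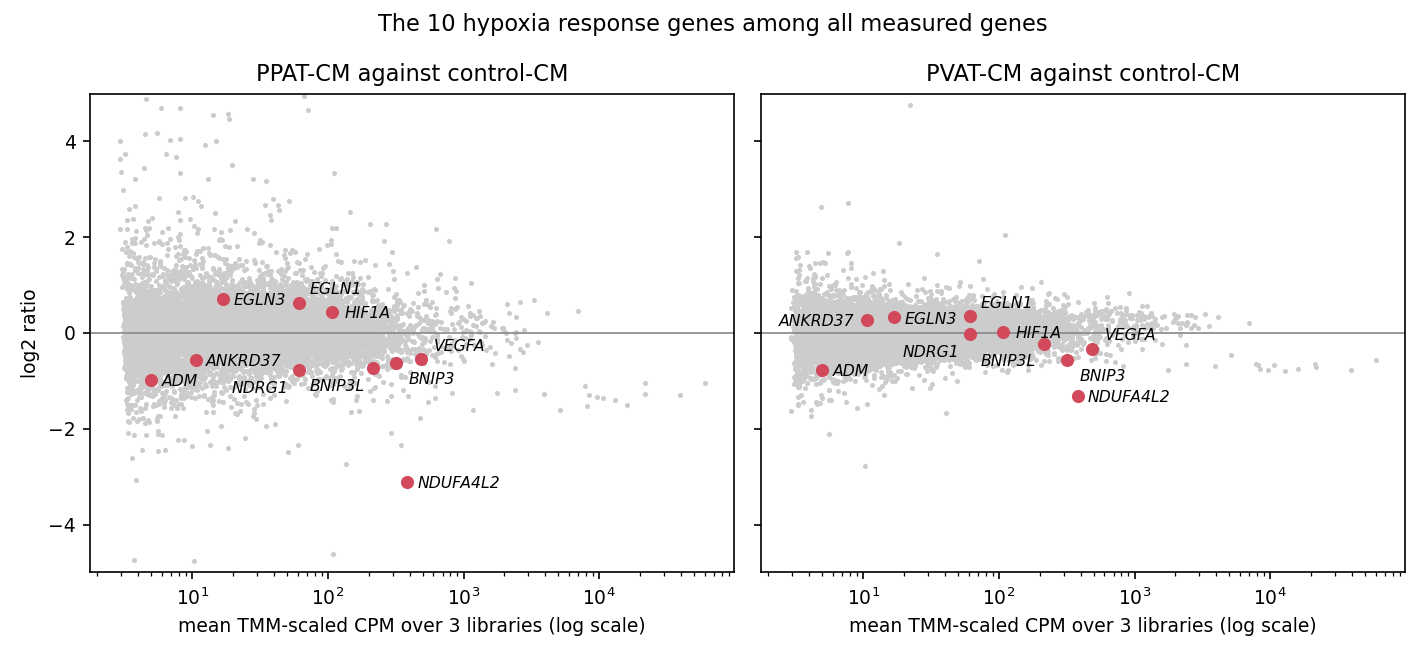
Log2 ratio against control-CM (y axis) by mean TMM-scaled CPM over the 3 libraries (x axis, log scale) for the 12256 measured genes in grey, with the 10 hypoxia response genes in red. NDUFA4L2 lies below nearly all genes of its level in both panels; 8 genes lie beyond the axis limits of 5 in the left panel.

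BNIP3 and BNIP3L encode outer mitochondrial membrane proteins that recruit the autophagy machinery to mitochondria, and both are classical HIF targets. BNIP3 (ENSG00000176171, chromosome 10, 131966455 to 131982013), whose promoter had the most matches above, had 6210, 3961 and 4843 counts in the control, PVAT-CM and PPAT-CM libraries, or 409, 278 and 263 scaled CPM. Both PVAT-CM and PPAT-CM were lower than control-CM and close to each other, with BNIP3 1.55-fold lower in PPAT-CM (1.5 to 1.61) and 1.47-fold lower in PVAT-CM (1.42 to 1.53). BNIP3L (ENSG00000104765, chromosome 8, 26382898 to 26505636) had 3991, 3218 and 2899 counts, or 263, 226 and 158 scaled CPM. Here PVAT-CM stayed near control-CM, 1.17-fold lower (1.11 to 1.22), and PPAT-CM was 1.67-fold lower (1.59 to 1.75). The ratio of BNIP3 to BNIP3L counts was 1.56 with control-CM, 1.23 with PVAT-CM and 1.67 with PPAT-CM, and was 1.36-fold higher in PPAT-CM than in PVAT-CM (1.27 to 1.45). The table also lists 39 BNIP3 pseudogenes, which together had 13, 21 and 21 counts, so few reads were assigned to these copies.

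Of 14 such genes beside these 2 receptors 13 were measured, and in PPAT-CM against control-CM 6 were at least 1.5-fold higher, where 12% of all measured genes were, and 0 lower, where 8.71% were. Their median was 0.35, beside 0.03 over all measured genes. SQSTM1, an autophagy receptor, had 1182, 2321 and 6938 counts in the control, PVAT-CM and PPAT-CM libraries and was 4.84-fold higher in PPAT-CM than in control-CM (4.55 to 5.15). It shares 20.7% of its exonic bases with MRNIP on the opposite strand, which had 818, 651 and 1068 counts. PINK1, the kinase that marks damaged mitochondria, was 2.31-fold higher (1.75 to 3.08), on 70 and 196 counts, and 39.4% of its exonic bases are shared with an antisense gene. OPTN was 1.72-fold (1.47 to 2.03), GABARAPL1 1.63-fold (1.51 to 1.76) and TAX1BP1 1.55-fold higher (1.47 to 1.63). FUNDC1, a further hypoxia-linked receptor, was listed at 0 in each library, which does not show that it was not expressed. In PVAT-CM against control-CM SQSTM1 alone of the 13 passed 1.5-fold, at 2.09-fold higher (1.95 to 2.24). Of all measured genes 3.15% were at least 1.5-fold higher there and 3.49% lower.

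NDRG1 (ENSG00000104419, chromosome 8, 133237171 to 133302022) is a stress-responsive gene raised by hypoxia and, in prostate cells, by androgen. It had 1082, 1003 and 765 counts in the control, PVAT-CM and PPAT-CM libraries, or 71.3, 70.4 and 41.6 scaled CPM. The control-CM and PVAT-CM libraries did not differ beyond counting error, with a ratio of 1.01 (0.930 to 1.11, lower in PVAT-CM), while PPAT-CM was 1.71-fold lower than control-CM (1.56 to 1.88) and 1.69-fold lower than PVAT-CM (1.54 to 1.86). The androgen-driven gene KLK3 had 10286, 9982 and 4577 counts, and its part in the NDRG1 value was not tested. Of the related genes, NDRG2 was 1.27-fold lower in PPAT-CM than in control-CM (1.14 to 1.42), the interval of NDRG3 included 1 (0.963 to 1.11), and NDRG4 had only 28, 38 and 27 counts.

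VEGFA (ENSG00000112715, chromosome 6, 43770184 to 43786487), the main growth factor of vessel sprouting, had 8964, 6697 and 7407 counts in the control, PVAT-CM and PPAT-CM libraries. These were 591, 470 and 403 scaled CPM, highest in control-CM and lowest in PPAT-CM. The gene was 1.47-fold lower in PPAT-CM than in control-CM (1.42 to 1.51), just short of 1.5-fold, and 1.26-fold lower in PVAT-CM (1.22 to 1.30). The NDUFA4L2 to VEGFA count ratio within a library was 1.27, 0.643 and 0.217, and was 5.88-fold lower in PPAT-CM than in control-CM (5.54 to 6.26). The 2 genes were therefore lower by unequal amounts whatever the scaling. ADM (ENSG00000148926, chromosome 11, 10304680 to 10307397), which encodes the vasodilator peptide adrenomedullin, had 109, 60 and 67 counts, or 7.19, 4.21 and 3.64 scaled CPM. It was 1.97-fold lower in PPAT-CM than in control-CM (1.44 to 2.72) and 1.71-fold lower in PVAT-CM (1.23 to 2.38). PVAT-CM and PPAT-CM did not differ beyond counting error, with an interval of 0.801 to 1.66.

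Of 14 related ligands and receptors 4 were measured. In PPAT-CM against control-CM 3 were at least 1.5-fold lower, where 8.71% of all measured genes were, and 0 higher, where 12% were. VEGFB, a VEGFA relative, was 1.97-fold lower in PPAT-CM than in control-CM (1.75 to 2.22), the VEGF co-receptor NRP1 was 1.61-fold lower (1.55 to 1.68), and RAMP1, a partner of the calcitonin receptor-like receptor, was 1.81-fold lower (1.68 to 1.96). RAMP1 differed between PVAT-CM and PPAT-CM, since it had 1578, 2300 and 1055 counts and was 1.55-fold higher in PVAT-CM than in control-CM (1.45 to 1.65). The adrenomedullin relative ADM2 was 1.47-fold higher in PVAT-CM (1.36 to 1.59) and 1.10-fold higher in PPAT-CM (1.02 to 1.19). The signalling receptors were scarce: KDR had 0 counts, FLT1 had 2, 0 and 6, and CALCRL, through which adrenomedullin acts, had 9, 9 and 24.

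ANKRD37 (ENSG00000186352, chromosome 4, 185396021 to 185400628) encodes an ankyrin repeat protein and is a direct HIF target. It had 168, 190 and 138 counts in the control, PVAT-CM and PPAT-CM libraries, or 11.1, 13.3 and 7.5 scaled CPM. PVAT-CM was thus the highest library and PPAT-CM the lowest, a different order from that of NDUFA4L2. The gene was 1.48-fold lower in PPAT-CM than in control-CM (1.17 to 1.86) and 1.78-fold lower than in PVAT-CM (1.42 to 2.23), and its interval for PVAT-CM against control-CM included 1 (0.973 to 1.49). ANKRD37 shares 909 of its exonic bases with UFSP2 on the opposite strand, whose 121, 100 and 170 counts ran in the opposite order.

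HIF1A, EGLN1 and EGLN3 were on the higher side in PPAT-CM. HIF1A (ENSG00000100644, chromosome 14, 61695513 to 61748259) had 1448, 1381 and 2378 counts in the control, PVAT-CM and PPAT-CM libraries, or 95.5, 96.9 and 129 scaled CPM. Control-CM and PVAT-CM were alike within counting error (interval 0.942 to 1.09), and PPAT-CM was 1.35-fold higher than control-CM (1.27 to 1.45). EGLN1 (ENSG00000135766, chromosome 1, 231363751 to 231425044), the main HIF prolyl hydroxylase, had 734, 876 and 1378 counts, or 48.4, 61.4 and 74.9 scaled CPM. It was 1.55-fold higher in PPAT-CM than in control-CM (1.41 to 1.70) and 1.27-fold higher in PVAT-CM (1.15 to 1.40). EGLN3 (ENSG00000129521, chromosome 14, 33924231 to 34462774), a hydroxylase that is strongly raised by HIF in many cells, had 197, 232 and 391 counts, or 13.0, 16.3 and 21.3 scaled CPM. It was 1.64-fold higher in PPAT-CM than in control-CM (1.38 to 1.95) and 1.25-fold higher in PVAT-CM (1.03 to 1.52). EGLN1 and EGLN3 thus ran in the order control-CM, PVAT-CM, PPAT-CM, the reverse of that of NDUFA4L2. The EGLN3 to EGLN1 count ratio was 0.268, 0.265 and 0.284 in the 3 libraries, and each interval of its change included 1.

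Other parts of the oxygen-sensing machinery, apart from VHL, differed little from control-CM. Of 14 such genes beside HIF1A, EGLN1 and EGLN3, 11 were measured, and their median was 0.03 in PPAT-CM against control-CM and -0.10 in PVAT-CM against control-CM. Of all measured genes 12% were at least 1.5-fold higher and 8.71% lower in PPAT-CM against control-CM. In PVAT-CM against control-CM these shares were 3.15% and 3.49%. VHL was the only one of the 11 past 1.5-fold in these comparisons, with 1873, 1497 and 3757 counts in the control, PVAT-CM and PPAT-CM libraries. It was 1.65-fold higher in PPAT-CM than in control-CM (1.56 to 1.75) and 1.18-fold lower in PVAT-CM (1.10 to 1.26). Between the adipose media VHL was 1.95-fold higher in PPAT-CM than in PVAT-CM (1.83 to 2.07). ARNT was 1.20-fold lower in PPAT-CM (1.10 to 1.32), RBX1, a subunit of the VHL ligase, was 1.28-fold lower (1.19 to 1.37), and the interval of the asparaginyl hydroxylase gene HIF1AN included 1 (0.901 to 1.20). EPAS1, which encodes HIF-2 alpha, had 31, 26 and 42 counts and HIF3A had 0, so HIF1A was the alpha subunit gene with appreciable counts. EGLN2 had 28, 44 and 39 counts, and 30.6% of its exonic bases are shared with a readthrough gene on the same strand, so its level is uncertain.

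Per kb of annotated exon NDUFA4L2 was the highest of the 10 genes in control-CM, at 268 scaled CPM, followed by BNIP3 at 76.9, BNIP3L at 61.1, VEGFA at 41.0 and HIF1A at 18.5. The other 5 lay between 1.76 and 7.26 scaled CPM per kb, and of neighbours in the order NDRG1 and EGLN1 did not differ beyond counting error (ratio 1.09, 0.992 to 1.20). In PVAT-CM NDUFA4L2 still led, at 108, and BNIP3L and BNIP3 were level with each other (1.00, 0.958 to 1.05). In PPAT-CM NDUFA4L2 stood at 31.1, below BNIP3 at 49.5 and BNIP3L at 36.6 and above VEGFA at 27.9 and HIF1A at 25.1. There ANKRD37 and EGLN3 were level (1.01, 0.823 to 1.23), and ADM was the lowest, at 1.34. The exon length is that of all annotated transcripts together, and the transcripts in use may be shorter, so the order between genes is approximate.

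**Figure D3:**
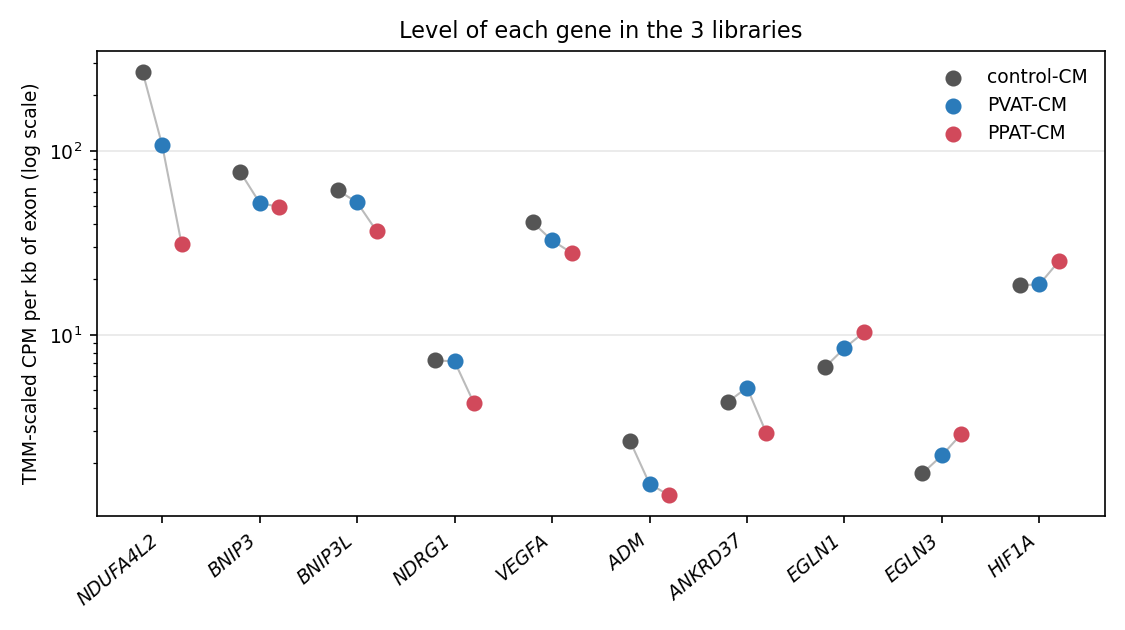
TMM-scaled CPM per kb of annotated exon (y axis, log scale) of the 10 genes in the control-CM, PVAT-CM and PPAT-CM libraries, 1 per medium, joined by a grey line per gene. NDUFA4L2 stands at 268, 108 and 31.1, while EGLN1, EGLN3 and HIF1A are highest in PPAT-CM.

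A list of 40 further HIF targets, of which 33 were measured, was examined in the same way. In PPAT-CM against control-CM 6 of the 33 were at least 1.5-fold lower, where 8.71% of all measured genes were, and 2 at least 1.5-fold higher, where 12% were, with a median of -0.16 beside 0.03 over all measured genes. PLOD2, a collagen lysyl hydroxylase, had 374, 144 and 145 counts in the control, PVAT-CM and PPAT-CM libraries and was 3.13-fold lower in PPAT-CM than in control-CM (2.57 to 3.81). The host transcript of a hypoxia microRNA, MIR210HG, was 2.17-fold lower (1.77 to 2.65), the glucose transporter gene SLC2A1 1.85-fold (1.63 to 2.09) and the carbonic anhydrase gene CA12 1.71-fold lower (1.47 to 1.98). PPFIA4 was 1.65-fold (1.17 to 2.33) and WSB1 1.59-fold lower (1.51 to 1.68). On the higher side were KLF10, a transcription factor also induced by TGF-beta, at 2.94-fold (2.49 to 3.49), and the glycolytic regulator PFKFB3 at 1.51-fold (1.21 to 1.91). PDK1, which holds pyruvate back from mitochondria, was 1.32-fold lower (1.17 to 1.5). CA9, a marker of hypoxia, had 11, 2 and 1 counts and was below the filter.

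In PVAT-CM against control-CM 3 of these 33 targets were at least 1.5-fold lower and 2 higher, where 3.49% and 3.15% of all measured genes were. The lower ones were PLOD2 at 2.44-fold (2.01 to 2.98), CA12 at 1.64-fold (1.40 to 1.92) and MIR210HG at 1.59-fold (1.30 to 1.94), and the higher ones KLF10 at 1.62-fold (1.34 to 1.96) and STC2 at 1.54-fold (1.46 to 1.62). SLC2A1 had 644, 668 and 423 counts in the control, PVAT-CM and PPAT-CM libraries, and its interval for PVAT-CM against control-CM included 1 (0.989 to 1.23). PLOD2 and CA12, like BNIP3 and ADM, were lower in both PVAT-CM and PPAT-CM. Between those media PLOD2 was 1.28-fold lower in PPAT-CM (1.01 to 1.62), and the interval of CA12 included 1 (0.878 to 1.24). SLC2A1 resembled NDRG1, with PPAT-CM alone lower. Scaled by total counts alone, the list median in PPAT-CM against control-CM turned to 0.08, and that of all measured genes to 0.27. With that scaling 3 of the 33 were at least 1.5-fold lower and 5 at least 1.5-fold higher in PPAT-CM against control-CM, so the lean of these counts depended on the scaling. The shares of all measured genes were computed under TMM only.

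**Figure D4:**
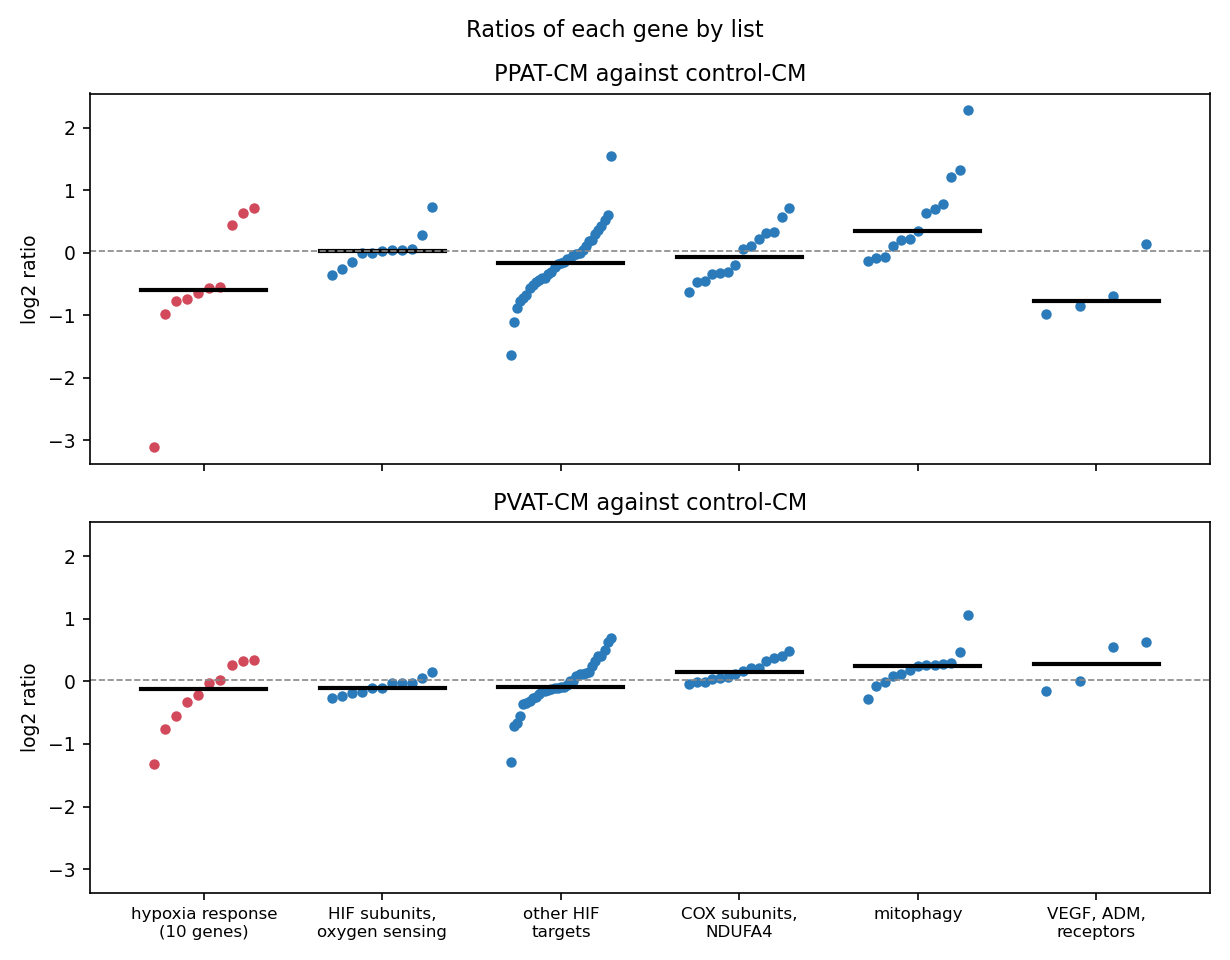
Log2 ratio (y axis) of each measured gene of the 10 hypoxia response genes (red) and of 5 related lists without them (blue), in PPAT-CM and in PVAT-CM against control-CM. Black bars are list medians and the dashed line is the median of all measured genes; in PPAT-CM the hypoxia genes have a median of -0.60 and the mitophagy genes 0.35.

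Set directly against PVAT-CM, PPAT-CM had NDUFA4L2, ANKRD37 and NDRG1 at least 1.5-fold lower. BNIP3L was 1.43-fold lower (1.36 to 1.51) and VEGFA 1.17-fold lower (1.13 to 1.21). BNIP3 was within 1.05-fold (1.01 to 1.10, lower in PPAT-CM), and this direction turned with total counts in place of TMM. HIF1A was 1.34-fold (1.25 to 1.43), EGLN3 1.31-fold (1.11 to 1.54) and EGLN1 1.22-fold higher in PPAT-CM (1.12 to 1.33). Each of the 10 genes kept its direction in PPAT-CM against control-CM under all 5 other scalings and pseudocounts run. The scalings shifted log2 ratios by at most 0.24 there, and the ratio smallest in size, that of HIF1A, was 0.44. No scaling run could therefore turn a direction. In that comparison 2 genes in place of 5 were at least 1.5-fold lower when scaled by total counts, and 7 with upper quartile factors. These scalings moved all genes alike, with the median of all measured genes at 0.27 and -0.047 in place of 0.03. The share of all genes past 1.5-fold was computed under TMM only.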

How the data were processed

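The deposited table holds raw counts per gene, whole numbers that the authors did not normalize, in 1 column per library. FastQC, Trimmomatic, HISAT2, featureCounts and edgeR with GRCh38 are named in the submitters' processing notes, and versions, settings and the strand rule are not stated there, so counts of overlapping genes may hold shared reads or lack them. Of 58884 rows 58611 matched GENCODE 29, which gave names, coordinates and exon lengths. Totals were scaled by TMM factors (0.917 for control-CM, 1.01 for PVAT-CM and 1.08 for PPAT-CM; edgeR 4.0.16, R 4.3.3). Genes with a mean count of at least 50 were kept. Lists and thresholds used log2 ratios of scaled counts with a pseudocount of 0.5. Printed folds are ratios of scaled counts with exact conditional binomial (Clopper-Pearson) 95% intervals, and those of count ratios between 2 genes are conditional odds ratios (Python 3.11.15, scipy 1.17.1). Intervals cover counting error only, and without molecular identifiers a read is not an independent molecule. With 1 library per medium edgeR's test has no residual degrees of freedom and was not run. The steps were tested on simulated counts with counting error and known changes only. Variation between cultures and the differing mitochondrial share of the libraries were not simulated, so that test does not bear on them. The 10 genes, the 6 related lists and the rule for named genes (all 10, partners fixed by name, the 2 largest ratios of each list and the 6 nearest patterns) were chosen with earlier results of these data known, and further list genes past 1.5-fold, with the mitophagy, receptor and marker genes named for their low counts, were named after their values were seen. Alternatives were DESeq2 1.42.0 size factors, total counts, upper quartile factors, TMM without mitochondrial genes, a pseudocount of 5, other count filters, a 2-fold threshold, an interval excluding 1, and a mean in place of the median. Some genes that the lists and the naming rule take are not reported here.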

Additional observations from a re-analysis of the deposited data

How the results depend on the processing

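With total counts in place of TMM every log2 ratio shifted by 0.24 in PPAT-CM against control-CM, 0.13 in PVAT-CM against control-CM and 0.11 in PPAT-CM against PVAT-CM. Each shift is the log2 ratio of 2 TMM factors, and what set these factors was not tested. Computed without mitochondrial genes, the factors were 1.02 for control-CM, 0.983 for PVAT-CM and 0.996 for PPAT-CM. Scaled by total counts, NDUFA4L2 stood at -2.87, -1.19 and -1.68 in the same comparisons, in that order. The median of all measured genes was then 0.27, 0.15 and 0.13. The median of the 10 genes moved to -0.36 in the first and turned to 0.012 in the second, where NDRG1 turned to 0.11, and in the third BNIP3 turned to 0.031. The number of the 10 at least 1.5-fold lower in PPAT-CM against control-CM fell to 2. List medians turned too, for other HIF targets to 0.083, 0.041 and 0.024 in the 3 comparisons, for cytochrome c oxidase genes to 0.18 in the first and for oxygen sensing genes to 0.029 in the second. Each turned median was still below that of all measured genes. With upper quartile factors 7 genes were at least 1.5-fold lower and 1 at least 1.5-fold higher in PPAT-CM against control-CM, and the oxygen sensing median turned to -0.047. The median of all measured genes was -0.047 there too. Shares of all genes past 1.5-fold were computed under TMM only. At 2-fold, 1 gene, NDUFA4L2, was lower in each comparison and 0 were higher. In PVAT-CM against control-CM 1 gene was lower with a mean count of at least 200, which drops ADM, and the mean log2 ratio of the 10 was -0.23. Of the 6 genes nearest to NDUFA4L2, 3 were shared when the minimum mean count was 50. No paired analysis was possible because each medium had 1 library. A replicate was not available to set any difference against, and ADM, ANKRD37 and EGLN3 rest on the fewest counts.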
